A study of Mus musculus with 3 samples.

Results

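The glycosaminoglycan linker genes were followed across 3 two-colour arrays of mouse embryonic fibroblasts. They are Pxylp1 and 9 genes that act with it: Xylt1, Xylt2, Fam20b, B4galt7, B3galt6, B3gat3, Csgalnact1, Extl3 and Ugdh. Every probe whose transcript belongs to one of these genes was taken, which gave 15 probes for 10 genes out of 41174 probes on the array. Pxylp1 was chosen by its measured value, because it was 1 of 2 genes (0.0108% of 18507) that had passed the test as higher in the channel labelled SA1-null. Its own ratio is therefore given as a description with no test. The other 9 genes were chosen for their place in the same pathway, with results of these arrays already known.

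Each array carried RNA of a culture labelled SA1-null in Cy3 and of a culture labelled WT in Cy5. The SA1-null cultures are labelled null for SA1, the product of Stag1, and both kinds were primary, untreated cultures from E12.5 embryos, grown in DMEM with 10% FBS. SA1 belongs to cohesin, a ring-shaped complex that joins sister chromatids and forms loops of chromatin, and the series is about its role in gene regulation and development. The labels give 3 biological replicates, name neither the disrupted part of Stag1 nor the number of embryos per culture, and give no array with swapped dyes. Dye and genotype therefore cannot be told apart, and p-values measure only the spread between these cultures.

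Stag1 went against the labels. Its brightest probe had log2 ratios of Cy3 (labelled SA1-null) over Cy5 (labelled WT) of 3.34, 3.74 and 3.47 on replicates 1, 2 and 3, which is 11.4-fold higher where it should be disrupted. Its next probes had means of 3.53 ± 0.35 and 2.17 ± 0.53 (SD, n = 3), and its dimmest, which passed background in Cy5 on 0 of 3 arrays, was at least 1.5-fold higher in Cy3. Before correction that dimmest probe read 67.5, 41.5 and 49 in Cy3 against 68.5, 57.5 and 52 in Cy5. Its order therefore came from the background correction and normalization. The sample titles set KO against WT, in that order. The authors' deposited values run as Cy5 over Cy3, and turned to Cy3 over Cy5 they put Stag1 at 3.56. Whether the channel labels were exchanged was not tested. Groups are therefore named by the label of their channel throughout, and every direction turns over if the channel labels were exchanged. Of all probes, 60.7% to 66.0% were well above background in Cy3 and 62.0% to 67.1% in Cy5, and no spot was saturated (0 on each array). Fibroblast markers were measured for 11 of 12 genes, all well above background in both channels. Of the 11, 10 had a mean ratio above 0, beside 45.6% of all genes, and Thy1 was below (-0.38). Only 6 of the 11 were above 0 on every array, as were 2458 of all 18507 genes, and 0 passed in limma. Macrophage and blood cell markers were also present, as detailed beside the Pxylp1 values.

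Glycosaminoglycans are long sugar chains, such as chondroitin sulfate and heparan sulfate, that are built on serines of proteoglycan core proteins at the cell surface and in the matrix made by fibroblasts. The chains start from a short common linker. Xylosyltransferases place a xylose on the core protein, galactosyltransferases and a glucuronyltransferase extend it, and the next sugar commits the chain to the chondroitin or the heparan type. While the linker grows, the kinase FAM20B phosphorylates the xylose and the phosphatase encoded by Pxylp1, also known as Acpl2, removes that phosphate.

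Pxylp1 was about 4 times as bright in the channel labelled SA1-null. Its brighter probe read 1113.5, 529 and 1158 in the channel labelled SA1-null on replicates 1, 2 and 3, against 774, 290 and 246 in the channel labelled WT, before any correction. The local background there was 21 to 36 in Cy3 and 51 to 64 in Cy5, and the probe was well above background in both channels on 3 of 3 arrays. After background correction and normalization the intensities were 1235, 1033 and 1384 in the channel labelled SA1-null and 279, 310 and 298 in the channel labelled WT. The values in the channel labelled WT lay closer together (295.7 ± 15.5, SD, n = 3) than those in the channel labelled SA1-null (1217 ± 176). The log2 ratios were 2.15, 1.74 and 2.21, with a mean of 2.03 ± 0.26 (SD, n = 3) or 4.09-fold. By that mean, Pxylp1 ranked 5 from the top of 18507 genes and 141 by size in either direction.

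**Figure D1:**
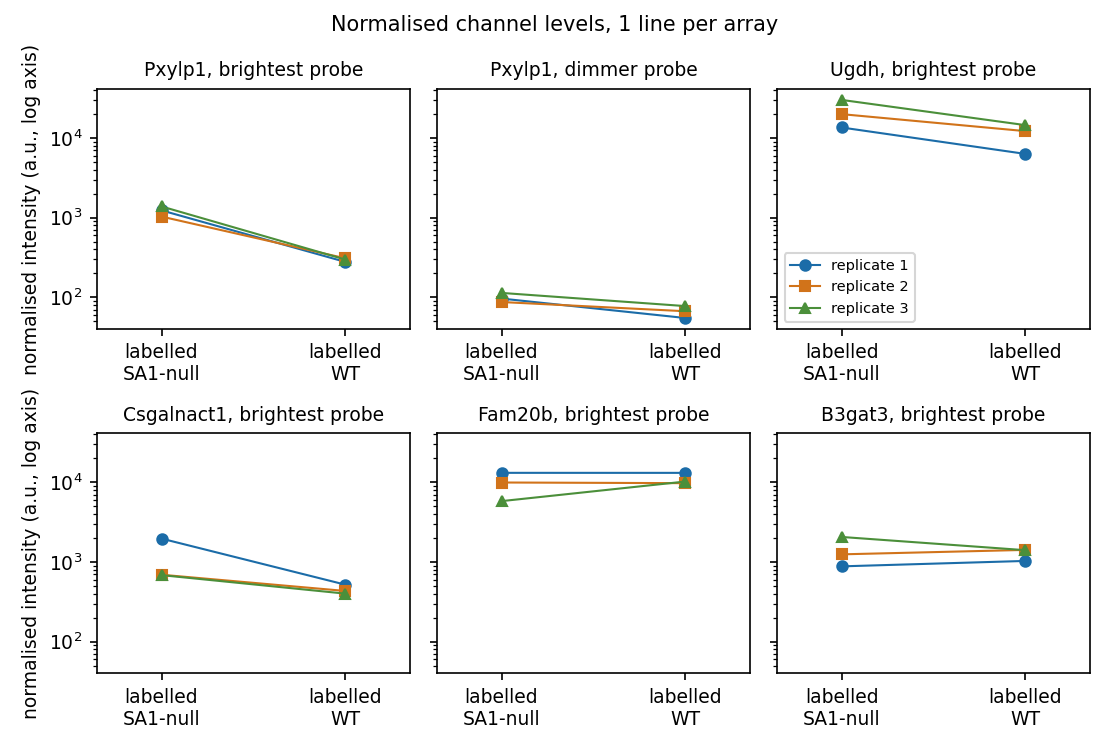
Normalised intensity (arbitrary units, log axis) of 6 probes in the channel labelled SA1-null (left of each panel) and the channel labelled WT (right), 1 line per array. Both Pxylp1 probes and the Ugdh and Csgalnact1 probes slope down from left to right on 3 of 3 arrays, while the lines of Fam20b and B3gat3 run in different directions. Panels should not be compared in height, since probes differ in brightness for reasons other than transcript level.

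The dimmer Pxylp1 probe carried little signal. It read 59, 44 and 67.5 in the channel labelled SA1-null, where it was well above background on 3 of 3 arrays, against 79.5, 59.5 and 67 in the channel labelled WT, where it was well above background on 0 of 3. The difference is therefore a bound: the channel labelled SA1-null was at least 1.5-fold higher, from means of normalised log2 intensities of 6.63 and 6.05. Before correction this probe read lower in the channel labelled SA1-null on replicates 1 and 2. The order of the channels there came from the background correction and normalization. Such a bound compares 2 dyes with no balanced swap and is open to dye bias. Averaging both probes would put the gene at a log2 ratio of 1.31, a value that takes in the probe for which only a bound was measured. In the authors' deposited table, whose values run as Cy5 over Cy3, the brighter probe stood at -2.37, -1.84 and -2.20 and the dimmer one at -0.61, -0.51 and -0.67. The direction of that table was itself set by its correlation with the ratios computed here.

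Replicate 1 was on a slide of its own at a log2 ratio of 2.15, and replicates 2 and 3 shared the other slide with a mean of 1.98. The slides were read from the barcode in the scan names, since the sample labels do not give them. Replicate 1 was also the only one read with Feature Extraction 10.1.1.1 rather than 10.7.3.1, so slide and software version cannot be told apart. With the slide as a term the ratio was 2.06. The mean was 1.98 without replicate 1, 2.18 without replicate 2 and 1.94 without replicate 3. The call that selected Pxylp1 was not made without replicate 2 or without replicate 3, where no gene passed in limma (0 of 18511 and 0 of 18559). Nor was it made with median centring, with no filter on dim probes (where no gene passed) or with the mean of its probes. Since the gene was chosen for a large mean with a small spread on these same arrays, the closeness of its values supports nothing.

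Markers of macrophages and other blood cells moved with this comparison. Of 23 such markers 22 were measured, all 22 were lower in the channel labelled SA1-null on 3 of 3 arrays, 12 of them passed in limma as lower, beside 0.292% of all genes, and the median ratio was -2.86 on the log2 scale. Over all 18507 genes, 3538 were below 0 on every array. The 22 macrophage and blood cell markers had summed normalised intensities of 43984, 12030.1 and 10238 in the channel labelled SA1-null, against 475755, 91935 and 83668 in the channel labelled WT. In the channel labelled SA1-null 20 of the 22 were still well above background on all arrays, and in the channel labelled WT 22 were. The 11 fibroblast markers summed to 914723, 375432 and 555607 in the channel labelled SA1-null and to 359128, 323318 and 277528 in the channel labelled WT, with a median log2 ratio of 0.79. The 4 measured of 10 endothelial markers had a median of 0.43, with 3 above 0 and 1 below (Kdr at -1.14). The 6 measured of 8 epithelial markers had a median of -0.02, with 3 above 0 and 3 below. These ran from -1.02 for Krt8 to 0.66 for Krt19. In such bulk RNA, fewer cells of a type and less RNA per cell cannot be told apart. The part of these markers in the Pxylp1 ratio, or in any ratio below, was not tested.

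The RefSeq windows around transcription starts (250 bases before to 50 after, build GRCm38.p6) are shown for 4 genes. Pxylp1 and Stag1 are shown as the 2 genes called higher in the channel labelled SA1-null, Fam20b as the kinase whose phosphate the Pxylp1 product removes, and Ugdh as the linker gene with the smallest p besides Pxylp1. They lie at chr9:96889425-96889724 on the minus strand (Pxylp1), chr9:100643198-100643497 on the plus strand (Stag1), chr1:156718861-156719160 on the minus strand (Fam20b) and chr5:65435793-65436092 on the minus strand (Ugdh). Capitals mark GC boxes (GGGCGG, both strands), CCAAT boxes (CCAAT, both strands) and the letters AGGGGGCGC (both strands), so that a match on the other strand reads as its reverse complement. The 9 letters are the centre of the motif of CTCF, the protein that positions cohesin on chromatin.
Pxylp1: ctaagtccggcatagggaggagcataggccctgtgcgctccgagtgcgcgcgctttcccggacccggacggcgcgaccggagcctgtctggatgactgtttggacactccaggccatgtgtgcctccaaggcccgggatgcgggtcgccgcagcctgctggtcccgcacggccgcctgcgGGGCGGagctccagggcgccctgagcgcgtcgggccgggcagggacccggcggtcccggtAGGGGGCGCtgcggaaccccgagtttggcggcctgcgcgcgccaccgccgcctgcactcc
Stag1: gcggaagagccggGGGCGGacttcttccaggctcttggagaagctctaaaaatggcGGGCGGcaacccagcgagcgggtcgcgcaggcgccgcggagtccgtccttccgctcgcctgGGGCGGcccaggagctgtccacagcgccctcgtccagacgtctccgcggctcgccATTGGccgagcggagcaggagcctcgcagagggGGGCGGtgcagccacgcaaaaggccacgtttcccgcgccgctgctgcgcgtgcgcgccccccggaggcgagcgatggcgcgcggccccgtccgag
Fam20b: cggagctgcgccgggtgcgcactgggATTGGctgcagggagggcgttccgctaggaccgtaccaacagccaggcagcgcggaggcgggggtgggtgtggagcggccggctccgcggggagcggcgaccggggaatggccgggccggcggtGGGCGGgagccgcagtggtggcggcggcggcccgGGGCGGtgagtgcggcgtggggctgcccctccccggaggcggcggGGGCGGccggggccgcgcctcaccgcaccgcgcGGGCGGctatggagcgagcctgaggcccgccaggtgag
Ugdh: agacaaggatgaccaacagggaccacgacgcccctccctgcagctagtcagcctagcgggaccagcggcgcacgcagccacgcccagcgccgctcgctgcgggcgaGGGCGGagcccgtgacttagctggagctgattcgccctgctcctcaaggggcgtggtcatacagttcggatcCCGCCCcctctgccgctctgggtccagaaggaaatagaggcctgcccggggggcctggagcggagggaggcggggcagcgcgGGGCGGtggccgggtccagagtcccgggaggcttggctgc

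All 4 windows were rich in G and C, at 74.3% for Pxylp1, 73.7% for Stag1, 80.3% for Fam20b and 71.0% for Ugdh, against a median of 52.7% over 32851 windows of the same length. GC boxes numbered 1 in Pxylp1, 4 in Stag1, 4 in Fam20b and 3 in Ugdh, and 35.7% of all windows held at least 1. A CCAAT box, found in 37.4% of all windows, occurred once in Stag1 and once in Fam20b. The CTCF centre occurred once in Pxylp1, from base 241 to base 249 of the window, overlapped no other marked motif and was in 1.25% of all windows. Those 9 letters were chosen after the sequences had been read, and a 12-letter form of the CTCF core, present in 2.43% of all windows, was in none of the 8 windows searched (those 4 and Xylt2, B4galt7, B3galt6 and B3gat3). An E-box (CACGTG, 7.15% of all windows), a TATA box (TATAAA, 13.6%) and a cyclic AMP response element (TGACGTCA, 1.79%) were in none of the 8 either. Of the 10 linker genes, 7 had a window in the table, and Xylt1, Csgalnact1 and Extl3 did not.

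None of the genes for making or phosphorylating the xylose link (0 of 3) came near the ratio of Pxylp1 on any array. Fam20b, the kinase, had normalised intensities of 13101, 9911 and 5791 in the channel labelled SA1-null and of 13092, 9726 and 10192 in the channel labelled WT. On replicates 1 and 2 both channels were nearly equal, while on replicate 3 the channel labelled SA1-null was the dimmer one. The mean log2 ratio was -0.26 ± 0.48 (SD, n = 3), with a limma 95% interval of 0.55-fold to 1.26-fold. With median centring in place of loess the mean was -0.78, where the median of all genes was -0.30. A dimmer Fam20b probe was not well above background in either channel on any array (0 of 3 in each) and gives no ratio.

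The xylosyltransferases that start the linker were near 0. Xylt1, measured by a dim probe (52.5, 85 and 88.5 in the channel labelled SA1-null and 153.5, 165 and 132.5 in the channel labelled WT before correction), had log2 ratios of -0.03, -0.05 and -0.20. Its mean was -0.09 ± 0.09 (SD, n = 3). Xylt2, its paralogue, had normalised intensities of 4896, 3195 and 3139.7 in the channel labelled SA1-null and of 5319.9, 2942 and 3324 in the channel labelled WT, which overlap. It had log2 ratios of -0.12, 0.12 and -0.08 at its brighter probe and a mean of -0.03 ± 0.13. The dimmer Xylt2 probe had ratios of -0.18, 0.02 and 0.37 and a mean of 0.07 ± 0.28, so its probes took opposite signs within their spread. The limma 95% interval of the brighter Xylt2 probe ran from 0.75-fold to 1.28-fold.

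The transferases that extend the linker with galactose and glucuronic acid did not share a direction. B4galt7, which adds the galactose next to the xylose, had normalised intensities of 415, 730.4 and 1054 in the channel labelled SA1-null and of 484, 789.6 and 851 in the channel labelled WT. That gave log2 ratios of -0.22, -0.11 and 0.31 and a mean of -0.01 ± 0.28 (SD, n = 3). B3galt6, which adds the next galactose, had intensities of 655, 765 and 802 in the channel labelled SA1-null and of 448, 737 and 765 in the channel labelled WT. Its log2 ratio was 0.55 on replicate 1 and at 0.05 and 0.07 on the others, with a mean of 0.22 ± 0.28. B3gat3, which adds the glucuronic acid that completes the linker, had intensities of 880.4, 1245 and 2058 in the channel labelled SA1-null and of 1029.7, 1416 and 1405 in the channel labelled WT. Both of its probes were below 0 on replicates 1 and 2 and above 0 on replicate 3, with ratios of -0.23, -0.18 and 0.55 at the brighter one (mean 0.05 ± 0.44) and of -0.01, -0.14 and 0.68 at the dimmer one (0.18 ± 0.44). B3galt6 was above 0 on 3 of 3 arrays, the intensities of the channels overlapped for all 3 genes, and for each the SD was larger than the mean at the brightest probe. B3galt6 and B3gat3 turned below 0 with median centring in place of loess (-0.08 and -0.31), and Xylt2, B4galt7 and Extl3 stood at -0.46, -0.31 and -0.94, a setting that put the median of all genes at -0.30. Over all 18 alternatives the sign turned in 6 for B4galt7, in 4 each for Xylt2 and B3gat3 and in 1 each for Fam20b, Xylt1 and B3galt6, while Csgalnact1, Extl3 and Ugdh kept theirs in 18 of 18.

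At the branch point Csgalnact1 and the heparan enzyme Extl3 had means on opposite sides of 0. Csgalnact2, a relative of Csgalnact1 given below, was at 0.12 ± 0.21 (SD, n = 3). Csgalnact1, which adds the sugar that commits a chain to chondroitin, had normalised intensities of 1962, 691 and 683 in the channel labelled SA1-null, against 519, 433 and 401 in the channel labelled WT. The channel labelled SA1-null was higher on 3 of 3 arrays, as it was for 2458 of all 18507 genes. Before correction Csgalnact1 read 1702, 344 and 556 in the channel labelled SA1-null, against 1421, 414 and 328.5 in the channel labelled WT. On replicate 2 the order therefore came from the normalization. Its log2 ratios were 1.92, 0.68 and 0.77, a mean of 1.12 ± 0.69 (SD, n = 3, 2.18-fold), and replicate 1 was the highest by a wide margin. On the other slide, which held replicates 2 and 3, the mean was 0.72. Extl3, which starts the heparan chain, had intensities of 9539, 8984 and 7442 in the channel labelled SA1-null and of 19298, 8254 and 9616 in the channel labelled WT. It had log2 ratios of -1.02, 0.12 and -0.37 and a mean of -0.42 ± 0.57, and was lowest on replicate 1. Its dimmer probe had ratios of -0.25, -0.15 and 0.17 and a mean of -0.07 ± 0.22. No test of the difference between Csgalnact1 and Extl3 was made.

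Ugdh, the enzyme that makes the UDP-glucuronic acid used for the linker and for the chains, had the smallest SD of the 4 genes above 0 among the 9 chosen with Pxylp1. Its normalised intensities were 13528, 19884.5 and 29990.3 in the channel labelled SA1-null and 6307, 12175.5 and 14473 in the channel labelled WT. The lowest value labelled SA1-null was below the highest labelled WT, but on each array the channel labelled SA1-null was the brighter one. Before correction it read 9916, 12113 and 22109.8 there, against 15600, 15530 and 15525 in the channel labelled WT, so that on replicates 1 and 2 the order of the channels came from the normalization. In the authors' deposited table, as Cy5 over Cy3, Ugdh stood at -1.24, -0.68 and -0.94 and Csgalnact1 at -2.24, -0.76 and -0.78, from the same scans. Its log2 ratios were 1.10, 0.71 and 1.05, with a mean of 0.95 ± 0.21 (SD, n = 3, 1.94-fold). With median centring in place of loess the mean was 0.37, against -0.30 for the median of all genes.

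**Figure D2:**
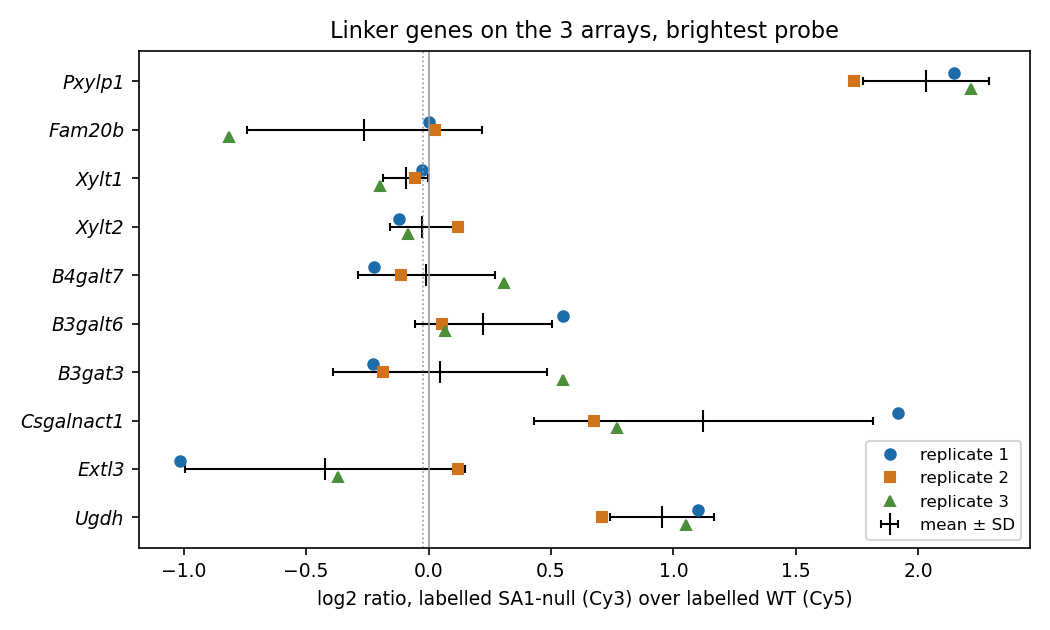
Log2 ratio of Cy3 (labelled SA1-null) over Cy5 (labelled WT) for the brightest probe of each linker gene. Symbols are the 3 arrays, the black bar and whiskers are the mean ± SD (n = 3), the solid line is 0 and the dotted line the median of all genes (-0.02). Pxylp1 lies between 1.74 and 2.21, Ugdh, Csgalnact1 and B3galt6 are above 0 on every array, B3galt6 by 0.05 and 0.07 on replicates 2 and 3, and the 7 genes other than Pxylp1, Ugdh and Csgalnact1 have means between -0.42 and 0.22.

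In limma's fit across all 18507 genes, 0 of the 9 genes chosen with Pxylp1 passed an adjusted p of 0.05, where 0.303% of all genes passed in either direction, 0.0108% as higher and 0.292% as lower in the channel labelled SA1-null. The smallest adjusted p among the 9 was that of Ugdh (limma adjusted p = 0.209), followed by Csgalnact1 (0.474), and those of the other 7 ran from 0.716 for Extl3 to 0.993 for B4galt7. At an unadjusted p under 0.05 there were 2 of the 9, both with ratios above 0, and 1386 of all genes (431 higher and 955 lower). Since Pxylp1 was picked in this same contrast, nothing is read from these counts. All 9 passed the filter on dim probes, and all 9 were well above background in both channels on every array, so none was kept through 1 channel alone. Of the 9, 4 had a mean above 0 and 5 below, with a median of -0.01 against -0.02 over all genes. Array medians were -0.03, 0.05 and 0.07. Only with the slide as a fixed term did any of the 9 pass (Csgalnact1 and Ugdh, 2 of 9), a fit in which the spread came from replicates 2 and 3 alone and 1768 genes passed.

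**Figure D3:**
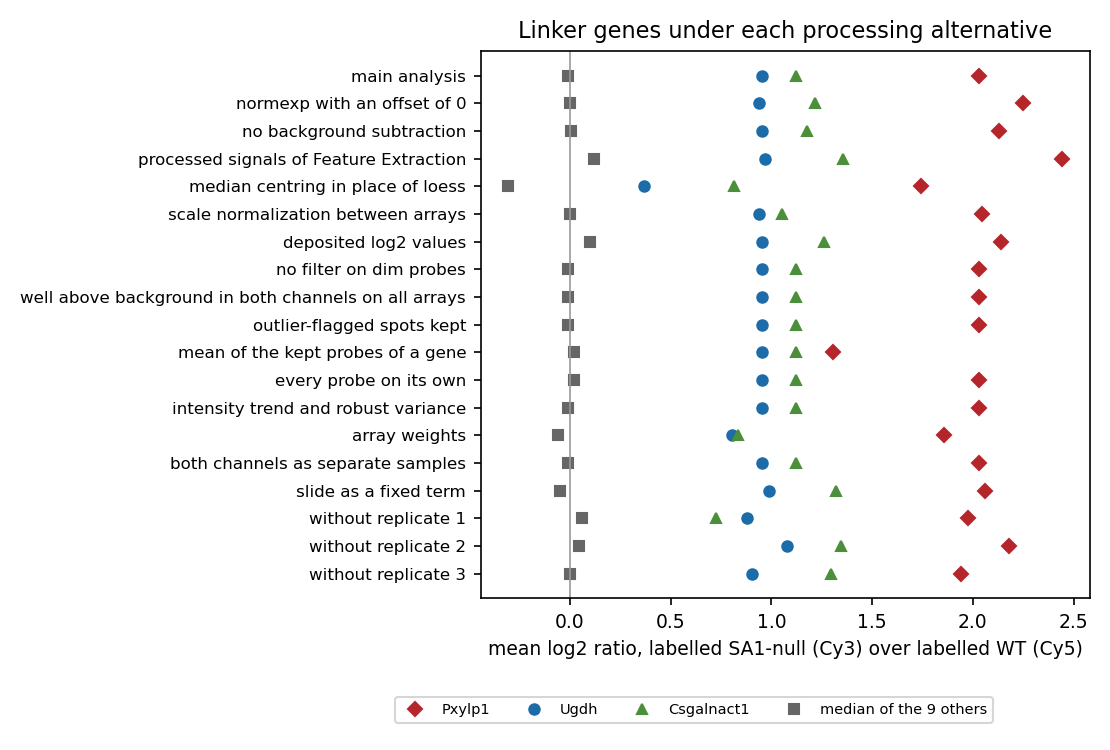
Mean log2 ratio of Cy3 (labelled SA1-null) over Cy5 (labelled WT) under the main analysis and 18 alternatives, for Pxylp1, Ugdh, Csgalnact1 and the median of the 9 genes chosen with Pxylp1. Pxylp1 runs from 1.31 (mean of its probes) to 2.44 (processed signals of Feature Extraction), Ugdh from 0.37 to 1.08 and Csgalnact1 from 0.72 to 1.36, and the median of the 9 stays between -0.31 and 0.12.

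The rest of glycosaminoglycan metabolism was read from a list of 88 genes, of which 77 were on the array under their symbols and 69 passed the filter. In limma 0 of the 69 passed as higher and 1 as lower in the channel labelled SA1-null, beside 0.0108% and 0.292% of all genes, and at an unadjusted p under 0.05 there were 4 higher and 2 lower, against 431 and 955 of all genes. Their median was 0.05, with 42 above 0 and 27 below. It turned to -0.32 with median centring and to -0.02 with array weights, where the medians of all genes were -0.30 and -0.02. The called gene was Srgn, which encodes serglycin, the proteoglycan of blood cell granules. Its normalised intensities were 330.2, 516 and 222 in the channel labelled SA1-null, against 4118, 4848 and 4671 in the channel labelled WT, which is -3.76 ± 0.59 on the log2 scale (SD, n = 3) with an adjusted p of 0.0281 in limma. It lay on the side of the blood cell markers given above. Its call was lost in limma without replicate 2 (adjusted p = 0.217), without replicate 3 (0.495) and with no filter (0.172). No gene at all passed in those settings.

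Of 5 genes grouped as chondroitin polymerases 2 were measured, the polymerizing factor Chpf at 0.48 ± 0.30 and Csgalnact2 at 0.12 ± 0.21 (SD, n = 3). Csgalnact2 is a relative of Csgalnact1 rather than a polymerase. With median centring, which put the median of all genes at -0.30, Chpf was at 0.06 and Csgalnact2 at -0.29. Among 8 measured genes that modify chondroitin and dermatan, the median was 0.08, the epimerase Dse stood at 0.67 ± 0.49, and the sulfotransferases Chst11 and Ust stood at -0.61 ± 1.04 and -0.50 ± 0.70. A second Ust probe had the opposite sign (0.13 ± 0.11), and the dimmer Chst11 probes were at -0.16 and -0.06. The heparan polymerase genes Ext1 and Ext2 were at 0.28 ± 0.78 and 0.37 ± 0.29, and their relative Extl2 was at 0.05 ± 0.14, and with median centring they stood at -0.19, -0.21 and -0.29. Among 12 measured heparan-modifying genes the median was 0.01, and the sulfotransferases Hs6st1 (-1.02 ± 1.26) and Hs3st3b1 (-0.72 ± 0.72) were lowest on replicate 1, at -2.44 and -1.53. The extracellular sulfatase Sulf2 had its probes at 0.35 and 0.34, and at -0.16 with median centring.

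Of 10 donor genes 9 were measured, with a median of 0.04. Uxs1, which turns the UDP-glucuronic acid made by UGDH into the UDP-xylose that starts the linker, was below 0 on 3 of 3 arrays (-0.29 ± 0.14, SD, n = 3), on the other side from Ugdh. Papss1 and Papss2, which make the sulfate donor, were at 0.30 ± 0.12 and 0.54 ± 0.51. Under median centring Papss1 was at -0.12, against -0.30 for the median of all genes. The 10 measured genes of chain degradation had a median of -0.06, and Gusb, Hgsnat and Hyal1 lay between -0.42 and -0.20. Has2, the hyaluronan synthase that passed the filter (1 of 3), was at -0.09 ± 0.42.

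The 24 measured core protein genes spread the most, from -3.76 for Srgn to 1.74, with a median of 0.06. Part of that spread lay on replicate 1 alone. Ncan had ratios of -5.98, -0.01 and -0.31, Bcan of -3.42, -0.21 and 0.03, and Acan of 2.89, -0.59 and -0.34. These 3 genes were named after their values were seen. Thbd, which encodes thrombomodulin, had the highest mean (1.74 ± 1.63, SD, n = 3) with ratios of 3.48, 1.51 and 0.24, highest on replicate 1. Bgn, the matrix proteoglycan biglycan, was at 1.39 ± 1.04, with ratios of 1.61, 0.27 and 2.31. Neither passed in limma (adjusted p = 0.658 and 0.552).

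**Figure D4:**
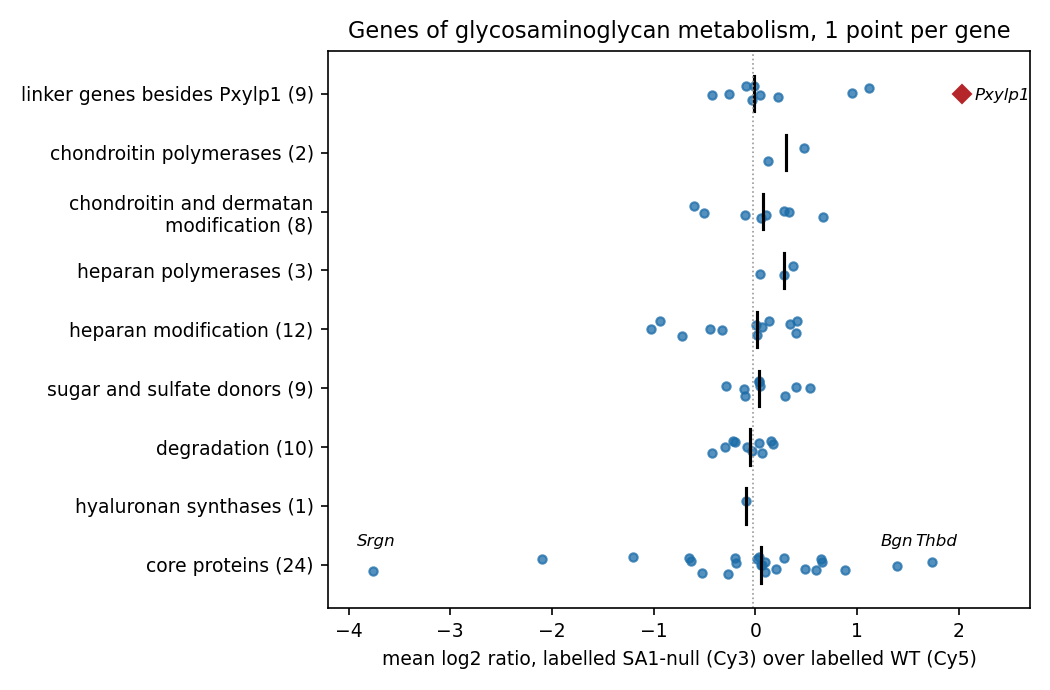
Mean log2 ratio of Cy3 (labelled SA1-null) over Cy5 (labelled WT) of each measured gene of glycosaminoglycan metabolism, grouped by role, with the number of genes in brackets, the group median as a black bar and the median of all genes as a dotted line. Pxylp1 (diamond) is at 2.03, Srgn at -3.76, Bgn at 1.39 and Thbd at 1.74, and the medians of the 9 groups lie between -0.09 and 0.30. Csgalnact2 is drawn with the chondroitin polymerases.

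The genes with the pattern closest to Pxylp1 were found by the Euclidean distance between the 3 log2 ratios, among 12033 other genes with a symbol. Ly6a, a surface antigen of stem cells, was the closest at a distance of 0.70, with ratios of 1.84, 1.38 and 1.70 (mean 1.64 ± 0.23, SD, n = 3). Next came the transcription factor Klf4 (distance 1.12), the growth factor gene Ptn (1.24), the collagen gene Col6a1 (1.24) and Nrn1 (1.28), with means from 1.59 to 1.76. The distance uses only 3 arrays and no test was made.

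Pxylp1 lies on the same chromosome as Stag1, by the gene order of GRCm38.p6, with 34 protein-coding genes between them. Of these, 18 were measured, and in limma 0 of the 18 passed, where 0.303% of all genes did, and 2 higher and 1 lower had an unadjusted p under 0.05, as did 1386 of all 18507 genes. Their median was -0.11, with 7 above 0 and 11 below. Spsb4, its neighbour towards Stag1, was at -0.22 ± 0.42 (SD, n = 3), and Slc25a36 after it at -0.03 ± 0.14. Zbtb38, its neighbour on the far side, was at 0.34 ± 0.44, followed by Rasa2 at 0.14 ± 0.32 (-0.07 with median centring) and Rnf7 at -0.13 ± 0.38. The third measured neighbour towards Stag1, Clstn2, ranged from -3.98 on replicate 1 to 0.37 on replicate 2. The highest of the 18 was Nmnat3, a gene of NAD synthesis, at 1.05 ± 0.53 and above 0 on 3 of 3 arrays, which was named for its value after it was seen.

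**Figure D5:**
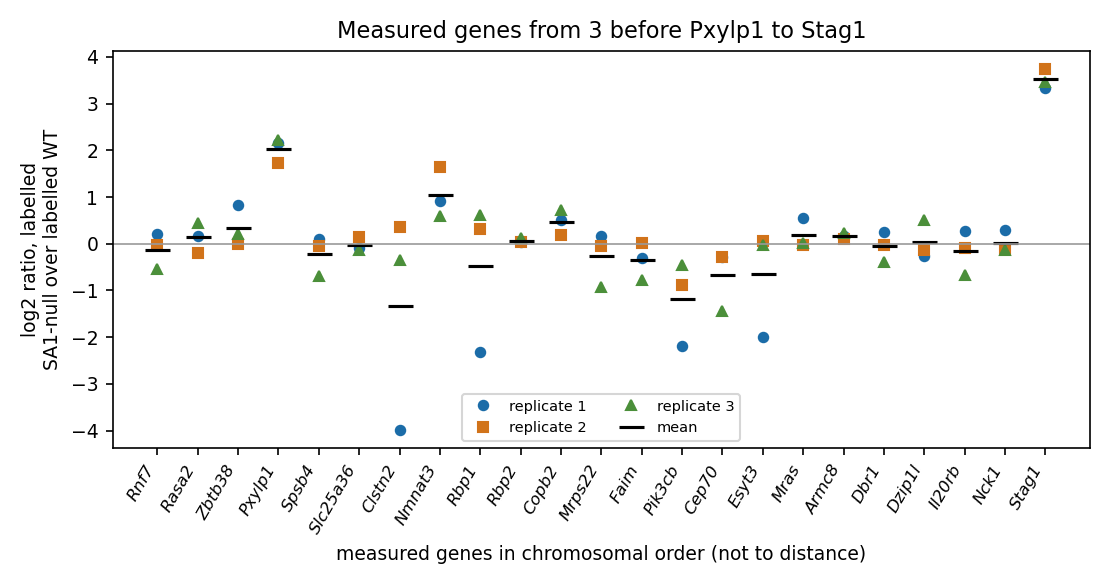
Log2 ratio of Cy3 (labelled SA1-null) over Cy5 (labelled WT) for the measured genes in chromosomal order, from the 3 before Pxylp1 through the 18 between it and Stag1. Symbols are the 3 arrays and bars the means. Pxylp1 is at 2.03 and Stag1 at 3.52, the 2 genes called as higher, and the means of the genes between them run from -1.32 to 1.05.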

How the data were processed

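RNA of cultures labelled SA1-null (Cy3) and WT (Cy5) shared 3 Agilent arrays. Per the file headers, Feature Extraction 10.1.1.1 (replicate 1) or 10.7.3.1 (replicates 2 and 3) made the spot and background intensity values. The files also hold, per the file headers, a log10 ratio, which was not used. The deposited table holds log2 values made with limma, per the submitters' processing notes. Its direction was found by correlation with the ratios computed here (-0.991, -0.986 and -0.997 against Cy3 over Cy5), its column medians were -0.02, -0.02 and -0.01, and its centring stays unknown.

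Median signals were corrected with normexp (offset 50) and normalized by loess within arrays in limma 3.58.1 (R 4.3.3). Control spots and outlier-flagged spots (116, 125 and 207) had weight 0 and were left out. Kept were 24041 probes well above background in 1 channel on all 3 arrays, with the brightest standing for each of 18507 genes. Of these, 12043 had a gene symbol. The rest were counted as genes under the transcript identifier of their probe, so some may belong to a gene already named. Channel levels were also put on 1 average-intensity distribution (Aquantile). Mean log2 ratios were tested against 0 with lmFit and eBayes across all genes and Benjamini-Hochberg adjustment at 0.05. The script was tested on simulated data.

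Transcripts were named through RefSeq GRCm38.p6 accessions (23374 probes, 16535 genes). The linker genes and lists were chosen with earlier results of these data known. Named genes are the linker genes, Stag1, other glycosaminoglycan genes that passed or had the up to 3 smallest p of their list, the 5 patterns closest to Pxylp1, and its 3 nearest measured neighbours on each side. Stag2 was also read (-0.11 and 0.38 at its probes). The labels do not call it disrupted, so its ratio cannot tell whether the channel labels were exchanged. Precision is limited by the number of arrays, and the spread between cultures is the only error measured.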

Additional observations from a re-analysis of the deposited data

How the results depend on the processing

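The count of 56 called genes was 265 with an offset of 0, 118 with no background subtraction, 325 with the processed signals of Feature Extraction, 34 with median centring, 158 with scale normalization, 0 with no filter on dim probes, 91 with both channels above background, 142 with an intensity trend, 183 with array weights and 1768 with the slide as a fixed term. Leaving out a replicate gave 0 to 280. The ratio of Pxylp1, which was chosen on these arrays, moved beyond its SD with processed signals (2.44), median centring (1.74) and the mean of its probes (1.31, with the probe that gives only a bound), and was 1.94 to 2.18 with a replicate left out.

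The median of the 9 genes chosen with Pxylp1 was 0.12 with processed signals, -0.31 with median centring, where all genes were at -0.30, 0.10 with the deposited values and -0.000376 to 0.0619 with a replicate left out. With the slide as a fixed term 2 of the 9 and 13 of the 69 other glycosaminoglycan genes were called, beside 468 higher and 1300 lower of all 18507 genes. Nothing is read from those counts, since the spread in that fit came from replicates 2 and 3 alone. The count of called glycosaminoglycan genes was 0 with no filter and 0 to 2 with a replicate left out. The median of those other genes was -0.32 with median centring and -0.0183 with array weights, where all genes were at -0.30 and -0.0163. For single genes, 747 of the values under alternatives stayed within 1 SD and 27 did not, 19 of these with median centring. The cause of these shifts was not tested. The ratio within each array already sets a pair of cultures against each other, so no further pairing was fitted.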
